A study of Rattus norvegicus with 3 samples.

Results

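The subject here is 5 antigen presentation genes of the rat, Psmb8, Psmb9, Tap1, B2m and Cd74, in the beta-cell line INS-1 832/13, an insulinoma-derived clone that keeps a secretory response to glucose. They are 5 of the 34340 gene models measured, and all 5 were above 0 in every library. RNA sequencing was done on cells overexpressing NIK (NF-κB-inducing kinase), cells overexpressing NIK(KA) and cells overexpressing β-Gal (β-galactosidase, a bacterial enzyme often used as an inert control). The labels describe neither NIK(KA) nor the way in which the proteins were expressed. In published work the name NIK(KA) is used for a mutant without kinase activity, in which an alanine replaces a lysine of the kinase domain. The library totals lay between 14349721 and 17457498 reads. Each protein was profiled in 1 library, so no difference below has a replicate check, no p-value is given, and each one is a difference between libraries that cannot be told apart from a difference between cultures.

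The deposited files list Ensembl IDs without gene names, and the names used here come with the rule by which the 5 IDs were chosen. These are ENSRNOG00000000456 (Psmb8), ENSRNOG00000000459 (Psmb9), ENSRNOG00000000457 (Tap1), ENSRNOG00000017123 (B2m) and ENSRNOG00000018735 (Cd74). No annotation used here goes against a name: all 5 symbols are in the reference gene table of the assembly GRCr8, but that table gives an Ensembl ID for 0 of its 47357 genes. The genes were chosen by name, with the FPKM ratios of NIK to the other libraries known. Their higher levels in NIK are therefore a description of genes picked with that in view, and the ratios to β-Gal and to NIK(KA) support nothing beyond it. Other genes of the pathway, among them the MHC heavy chains, and markers of beta cells or immune cells could not be looked up by name and were not analysed here, so the part of other cell types in the values was not tested. In bulk RNA, more cells with a transcript and more transcript per cell cannot be told apart.

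Cells show fragments of their own proteins on MHC class I molecules. Peptides are cut by the proteasome, in which the inducible subunits encoded by Psmb8 (LMP7) and Psmb9 (LMP2) can take the place of constitutive ones. The peptides are then carried into the endoplasmic reticulum by a transporter of which Tap1 encodes a subunit, and are loaded onto class I heavy chains bound to β2-microglobulin, the product of B2m. Cd74 encodes the invariant chain, which occupies the peptide groove of MHC class II molecules and directs them to endosomes. Class II is typical of professional antigen-presenting cells, and class I of nearly all nucleated cells. These genes are best known as targets of interferon signalling. NIK activates the non-canonical NF-κB pathway, in which p100 is processed to p52.

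In the RefSeq annotation of GRCr8, Psmb8, Tap1 and Psmb9 follow each other directly within the MHC on chromosome 20, whereas B2m lies on chromosome 3 and Cd74 on chromosome 18. Tap1 and Psmb9 are divergent neighbours, with 456 bases between their starts. The sequence around each start is shown because all 5 genes were higher in the same library. Each line gives the 160 bases before the start and the first 10 bases from it, 5′ to 3′ on the strand of the gene, from the RefSeq promoter table of GRCr8. Capitals mark the NF-κB letters (GGG, NN, TT, N and CC in a row) and the letters of an interferon-stimulated response element, or ISRE (GAAA, NN and GAAA in a row), where N is any base and either strand counts. The build behind the expression values is not settled, so these coordinates are those of the RefSeq table alone.
Psmb8, chr20:4657022-4657191, minus strand: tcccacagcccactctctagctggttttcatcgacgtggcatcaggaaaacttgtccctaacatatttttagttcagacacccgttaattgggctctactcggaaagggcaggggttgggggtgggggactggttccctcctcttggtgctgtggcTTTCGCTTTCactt
Psmb9, chr20:4668840-4669009, plus strand: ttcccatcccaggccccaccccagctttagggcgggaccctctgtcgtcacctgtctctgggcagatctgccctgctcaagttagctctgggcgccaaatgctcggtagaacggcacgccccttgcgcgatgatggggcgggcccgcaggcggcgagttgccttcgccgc
Tap1, chr20:4668534-4668703, minus strand: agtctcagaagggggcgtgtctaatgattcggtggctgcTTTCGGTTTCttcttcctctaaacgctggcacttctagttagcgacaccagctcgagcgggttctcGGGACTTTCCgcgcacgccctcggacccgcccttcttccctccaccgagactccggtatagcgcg
B2m, chr3:129549170-129549339, plus strand: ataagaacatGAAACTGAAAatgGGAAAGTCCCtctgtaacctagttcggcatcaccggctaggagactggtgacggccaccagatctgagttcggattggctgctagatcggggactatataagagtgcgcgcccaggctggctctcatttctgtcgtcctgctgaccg
Cd74, chr18:56527046-56527215, plus strand: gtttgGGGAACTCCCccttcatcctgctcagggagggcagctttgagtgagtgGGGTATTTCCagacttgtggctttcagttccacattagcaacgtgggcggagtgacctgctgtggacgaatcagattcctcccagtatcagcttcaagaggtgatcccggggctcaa

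The NF-κB letters were found in 3 of the 5 promoter windows, which ran from 250 bases before the start to 50 bases from it. Cd74 held a pair of matches, GGGAGTTCCC on the opposite strand at positions -155 to -146 and GGGTATTTCC at -107 to -98. B2m held GGGACTTTCC on the opposite strand at -137 to -128, and Tap1 held the same letters on its own strand at -55 to -46. Of 33469 rat promoter windows of the same 300 bases, 1675 (5.0%) held such a match. The ISRE letters were in 3 windows, those of B2m at -150 to -141, Tap1 at -121 to -112 and Psmb8 at -4 to 6, across its start, compared with 3.92% of all windows. B2m and Tap1 had both, as did 0.248% of all windows. The Psmb9 window had neither. The 5 genes were picked by name and are best known as interferon targets, so nothing about the libraries is read from these shares. Seen from the Psmb9 start, the Tap1 matches lie in the gap between the genes, at -411 to -402 for the NF-κB letters and -345 to -336 for the ISRE letters, which is outside the Psmb9 window.

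The other motifs searched were TTCNNNGAA (gamma-activated sequence, GAS), in 1 window (8.87% of all), CCAAT, in 4 (37.5%), GGGCGG (Sp1), in 3 (33.1%), and TATAAA, in 1 (14.2%). No match in the 5 windows overlapped a match of another motif. A match is a run of letters and not a bound site, and a window without one says nothing about the factor.

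**Figure D1:**
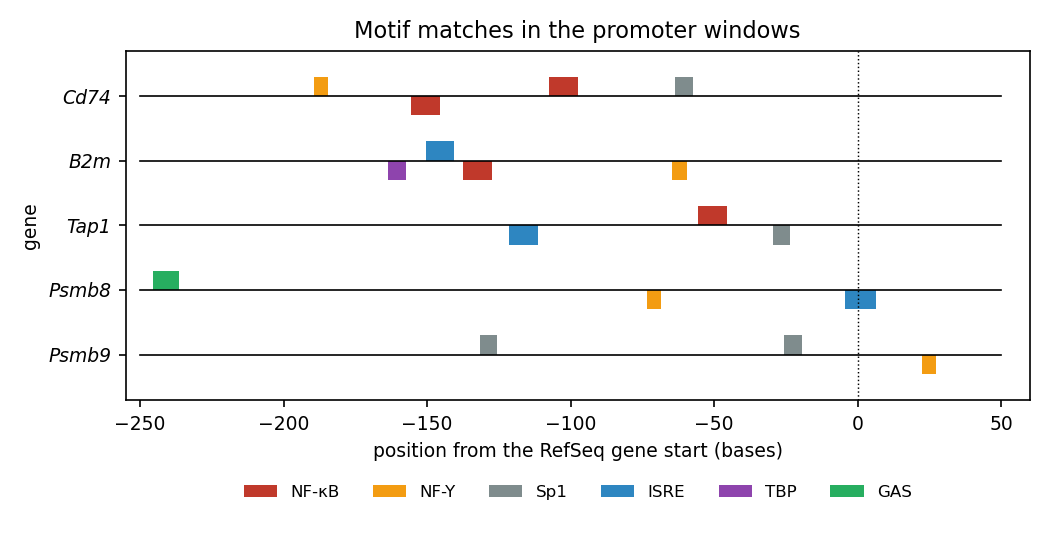
Motif matches by position in bases from the RefSeq gene start (x axis, dotted line at the start), 1 line per gene, with boxes above a line on the strand of the gene and below it on the opposite strand, NF-Y standing for CCAAT and TBP for TATAAA. Red boxes (NF-κB letters) lie in Cd74, B2m and Tap1, and blue boxes (ISRE letters) in B2m, Tap1 and Psmb8.

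The comparison of NIK with β-Gal asked what overexpression of the kinase was accompanied by. All 5 genes were higher in the NIK library. Psmb8, Psmb9, Tap1 and B2m were 3.73-fold to 4.84-fold above β-Gal, and Cd74 was 78.3-fold above it. NIK(KA) stood at 0.95 to 1.08 times the β-Gal level. Levels are in FPKM, reads per length of the gene model and per library total as computed by the authors. Comparisons of levels between genes rest on the gene model lengths used by the authors, and the annotation behind these is not settled. Read numbers behind the levels were worked out from the FPKM steps and are lower limits. Intervals are exact 95% intervals (Poisson for a level, Clopper and Pearson on the split of reads for a ratio) and cover counting error only. Because the read numbers are lower limits, the intervals are if anything too wide for that error where each read is an independent draw. How reads were filtered is not stated, and reads that are not independent would make the intervals too narrow. The intervals leave out the spread between cultures and any error in gene model length, so they can be too narrow for a difference between groups.

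Psmb8 had 57.1 FPKM in NIK (1049 reads, 53.7 to 60.6), 14.4 in NIK(KA) (251 reads, 12.6 to 16.3) and 14.6 in β-Gal (311 reads, 13.0 to 16.3). Of the 5 genes it was the lowest in NIK. NIK was high, and the intervals of the other libraries overlapped. The ratio of NIK to β-Gal was 3.90 (3.43 to 4.44) and that of NIK to NIK(KA) 3.97 (3.46 to 4.58).

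Psmb9 had 147 FPKM in NIK (1838 reads, 141 to 154), 33.0 in NIK(KA) (391 reads, 29.8 to 36.4) and 30.4 in β-Gal (439 reads, 27.7 to 33.4). NIK was again the only high library. The ratio of NIK to β-Gal was 4.84 (4.36 to 5.39), the largest of the 4 class I genes, and that of NIK to NIK(KA) was 4.47 (4.0 to 5.0). Both subunits belong to the inducible form of the proteasome, and Psmb9 was above Psmb8 in every library. Psmb9 over Psmb8 was 2.58 (2.39 to 2.79) in NIK, 2.30 (1.96 to 2.70) in NIK(KA) and 2.08 (1.80 to 2.41) in β-Gal.

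Tap1 had 184 FPKM in NIK (3499 reads, 177 to 190), 48.4 in NIK(KA) (877 reads, 45.2 to 51.7) and 49.2 in β-Gal (1084 reads, 46.3 to 52.2). The intervals of NIK(KA) and β-Gal overlapped, and that of NIK lay far above both. The ratio of NIK to β-Gal was 3.73 (3.49 to 4.0) and that of NIK to NIK(KA) 3.79 (3.52 to 4.09). Tap1 was above its divergent neighbour Psmb9 in every library, by 1.25-fold (1.18 to 1.32) in NIK, 1.47-fold (1.30 to 1.66) in NIK(KA) and 1.61-fold (1.44 to 1.81) in β-Gal. The lead of Tap1 was thus smallest in NIK, where the interval did not reach that of β-Gal but overlapped that of NIK(KA). Compared directly, the ratio of NIK to NIK(KA) of Tap1 over that of Psmb9 was 0.849 (0.744 to 0.968). That interval excludes 1 but covers counting error only.

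B2m, whose product is shared by all class I molecules, had the highest level of the 5 genes in each library. It had 629 FPKM in NIK (17335 reads, 619 to 638), 148 in NIK(KA) (3881 reads, 143 to 153) and 156 in β-Gal (4972 reads, 152 to 160). The ratio of NIK to β-Gal was 4.03 (3.91 to 4.16) and that of NIK to NIK(KA) 4.25 (4.10 to 4.40). By level it ranked 114 of the 19839 gene models above 0 in NIK, 648 of 20039 in NIK(KA) and 625 of 19199 in β-Gal. Among the 5 genes it had the largest difference in FPKM between NIK and β-Gal, at 473, compared with 252 for Cd74.

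Cd74, the class II chaperone, had 255 FPKM in NIK (3928 reads, 247 to 263), 3.34 in NIK(KA) (49 reads, 2.47 to 4.42) and 3.25 in β-Gal (58 reads, 2.47 to 4.21). NIK was high by far, and the intervals of the other libraries overlapped at a low level that rests on few reads. The ratio of NIK to β-Gal was 78.3 (60.5 to 103) and that of NIK to NIK(KA) 76.2 (57.5 to 103). Cd74 ranked 337 of the 19839 gene models above 0 in NIK, 11441 of 20039 in NIK(KA) and 11261 of 19199 in β-Gal, that is, within the top 1.70% in NIK and beyond the middle in the others.

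**Figure D2:**
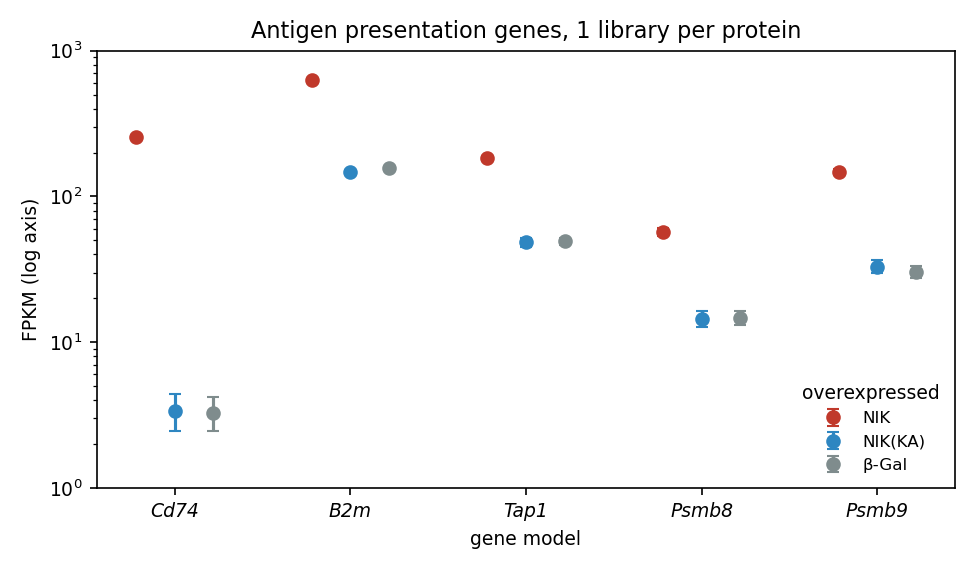
Levels of the 5 genes in FPKM (y axis, log scale) in the NIK, NIK(KA) and β-Gal libraries, 1 library each, with exact 95% Poisson intervals that are often smaller than the point. The NIK points lie above both others for all 5 genes, and Cd74 moves furthest, to 255 in NIK, against 3.34 in NIK(KA) and 3.25 in β-Gal.

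The order of the levels differed between the libraries in the place of Cd74 alone. In NIK it was B2m, Cd74, Tap1, Psmb9 and Psmb8 from high to low. In NIK(KA) and in β-Gal it was B2m, Tap1, Psmb9, Psmb8 and Cd74. The Poisson intervals of neighbours in these orders did not overlap in any library. Cd74 stood at 40.5% of the B2m level in NIK (39.2% to 42.0%), at 2.26% in NIK(KA) and at 2.09% in β-Gal. The levels of the 5 genes added up to 1271 FPKM in NIK, 247 in NIK(KA) and 253 in β-Gal, or 0.213%, 0.0409% and 0.0418% of the summed FPKM of all gene models. Cd74 made up 20.05% of the sum of the 5 genes in NIK, 1.35% in NIK(KA) and 1.28% in β-Gal.

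The ratios of NIK to β-Gal of the class I genes lay between 3.73 and 4.84. These ratios were known when the genes were picked, so nothing is read from their likeness. For the 6 pairs among Psmb8, Psmb9, Tap1 and B2m, a counting interval was made for the quotient of their ratios. It included 1 for 2 pairs, Psmb8 with B2m and Psmb8 with Tap1, and excluded 1 for 4. The largest gap was that of Tap1 and Psmb9, whose quotient was 0.771 (0.681 to 0.873). For NIK against NIK(KA) the interval included 1 for 4 of the 6 pairs, and Tap1 over Psmb9 was 0.849 (0.744 to 0.968). The ratio of Cd74 was 16.2 to 21.0 times that of each class I gene against β-Gal and 17.1 to 20.1 times against NIK(KA), with lower interval bounds of 12.2 or more. These intervals use a normal approximation on the log scale, were not adjusted over the 10 pairs of each comparison, and leave out the spread between cultures.

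Counts over all gene models were made on the log2(FPKM + 1) scale, which understates the change of low genes such as Cd74, among the 11171 gene models that reached 5 FPKM in 1 or more libraries. All 5 genes were in this set, Cd74 only through its level in NIK. In NIK versus β-Gal, 6.73% of the gene models were at least 2-fold higher, and 5 of the 5 genes were among them. At least 2-fold lower were 4.1% of gene models and 0 of the 5. The genes were chosen with this contrast in view, so nothing is read from that count. Their median log2 ratio was 2.0, compared with 0.02 over all gene models, and they ranked 2 (Cd74), 178 (Psmb9), 228 (B2m), 255 (Psmb8) and 259 (Tap1) of 11171. The 4 class I genes thus came below Cd74 in the order of ratios. These ranks rest on the pseudocount of 1 and were not made under another. The scale understates the change of still lower gene models more than that of Cd74. ENSRNOG00000004393 had a larger FPKM ratio than Cd74 (281 against 78.3) but a smaller log2(FPKM + 1) ratio (5.61 against 5.91).

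In NIK versus NIK(KA), which sets the kinase against the form named NIK(KA), 6.97% of gene models were at least 2-fold higher, and again 5 of the 5 genes, while 2.11% were at least 2-fold lower, and 0 of the 5. Their median log2 ratio was 2.08, compared with -0.12 over all gene models, and their ranks were 4 for Cd74, 247 for Psmb9, 263 for B2m, 315 for Psmb8 and 318 for Tap1. This comparison shares the NIK library with the previous one, so the likeness of their ratios is no separate evidence.

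In NIK(KA) versus β-Gal, 2.97% of gene models were at least 2-fold higher, and 0 of the 5 genes were. At least 2-fold lower were 1.95% of gene models, and 0 of the 5. The 332 higher and 218 lower gene models became 276 and 278 when the medians of the libraries were set to 0. The log2 ratios of the genes on the log2(FPKM + 1) scale were 0.11 for Psmb9, 0.03 for Cd74, -0.02 for Tap1, -0.02 for Psmb8 and -0.07 for B2m. Their ranks ran from 4868 to 6897 of 11171, in the middle of all gene models. All 5 lay within 1.1-fold, as did 26.0% of all gene models. That limit was chosen after the values were seen, and it was passed by Psmb9 with an equal upper quartile (1.11-fold) and by B2m with medians set to 0 (a ratio of 0.901).

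The ratios of FPKM of NIK(KA) to β-Gal were 1.08 for Psmb9 (0.943 to 1.24), 1.03 for Cd74 (0.688 to 1.53), 0.984 for Tap1 (0.899 to 1.08) and 0.982 for Psmb8 (0.828 to 1.16), and these 4 intervals include 1. The interval of B2m, the gene with the most reads, did not, at 0.95 (0.910 to 0.991), but that interval covers counting error only. The log2 ratio of B2m stayed below 0 under the alternatives tried, between -0.15 and -0.04, and that of Psmb9 stayed above 0, whereas Cd74 came below 0 with medians set to 0, and Tap1 and Psmb8 came above 0 with an equal upper quartile. For Cd74, with its few reads in these libraries, the interval leaves room for a level in NIK(KA) up to 1.53-fold above or 1.45-fold below that in β-Gal.

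**Figure D3:**
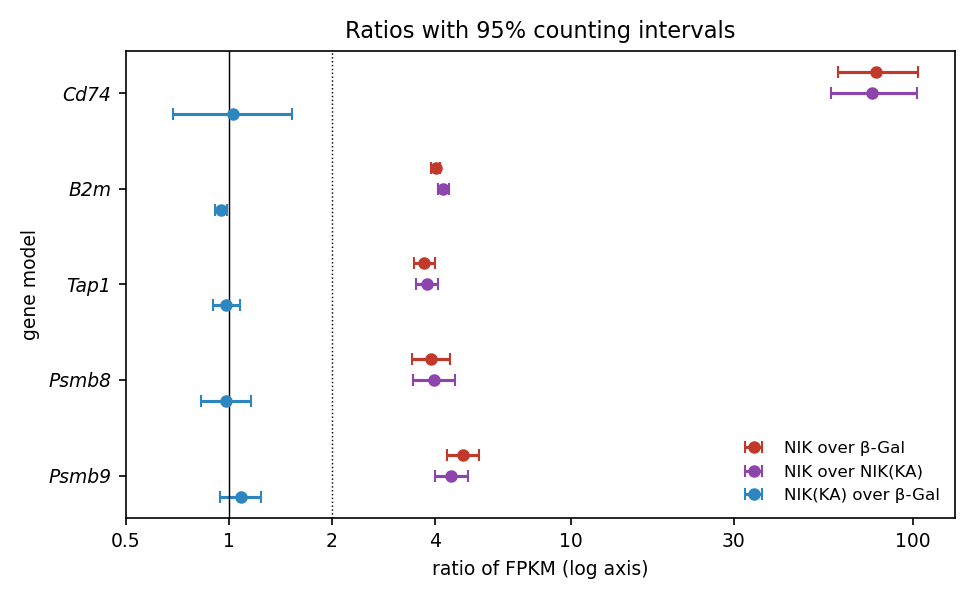
Ratios of FPKM (x axis, log scale) for NIK over β-Gal, NIK over NIK(KA) and NIK(KA) over β-Gal, by gene, with exact 95% counting intervals as bars, a solid line at 1 and a dotted line at 2. Both NIK ratios lie between 3.73 and 4.84 for the class I genes and between 76.2 and 78.3 for Cd74, and the third ratio lies near 1 for all 5.

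**Figure D4:**
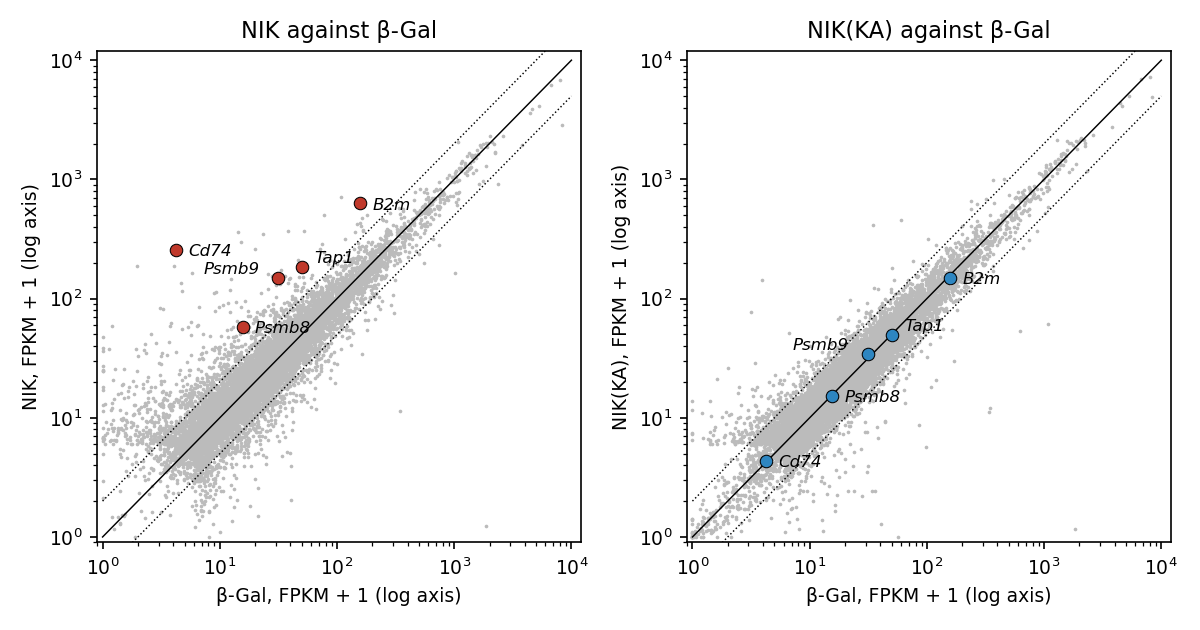
FPKM + 1 in NIK (left) and NIK(KA) (right) against β-Gal, both axes on a log scale, where grey points are the 11171 gene models that reached 5 FPKM in 1 or more libraries, filled points the 5 genes, the solid line equality and the dotted lines a 2-fold difference. The 5 genes lie above the upper dotted line on the left and on the line of equality on the right.

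Likeness to Cd74 was measured as the Euclidean distance over the log2(FPKM + 1) ratios of NIK and of NIK(KA) to β-Gal, across the 3 libraries. The nearest of the other gene models was ENSRNOG00000004393, at a distance of 0.31, which had 57.8 FPKM in NIK (2671 reads), 0.296 in NIK(KA) (13 reads) and 0.206 in β-Gal (11 reads). This gene model, like Cd74, reached 5 FPKM in the NIK library alone, and its ID comes without a name. Its ratio of NIK to β-Gal in FPKM was 281 (157 to 563), an interval that does not overlap that of Cd74, and its nearness rests on the pseudocount of 1: with pseudocounts of 0.1, 0.5 and 5, an addition made after the data were seen, it took place 27, 2 and 10, and another gene model was nearest each time. The distances of Cd74 to the class I genes were 3.67 to 4.03. Those among the class I genes were 0.01 to 0.38, the smallest being between Tap1 and Psmb8. The log2 ratios of NIK(KA) to β-Gal of the 5 genes lay between -0.07 and 0.11. The distances of Cd74 thus mostly restate the ratios of NIK to β-Gal, known when the genes were picked. Those among the class I genes do so in part, and nothing is read from either. Psmb9 lay farthest from the other class I genes, at 0.30 from B2m, 0.37 from Psmb8 and 0.38 from its divergent neighbour Tap1.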

How the data were processed

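The authors deposited 1 FPKM value per gene model and library. Per the submitters' processing notes, the tools were TopHat2 and HTSeq 0.6.1 and the build was GRCm38, which is of the mouse, whereas 32883 of the 34340 rows are rat Ensembl IDs, so the build and annotation are not settled. How reads were filtered and whether strand was used are not stated in the labels, so overlapping transcripts cannot be separated. Groups came from the sample titles, with 1 library each, and no test was made.

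Library totals, recovered as the common divisor of the FPKM steps, were 15095979 reads (NIK), 14349721 (NIK(KA)) and 17457498 (β-Gal). For each gene model the smallest whole read numbers matching the deposited FPKM were taken (tolerance 1e-06 reads, length at most 100000 bases). All 22026 gene models above 0 came out whole, and recovered reads made up 95.9%, 95.9% and 96.1% of the totals. The procedure was tested on simulated data. Ratios for counts used a pseudocount of 1, a minimum FPKM of 5 in at least 1 library and a 2-fold threshold. Alternatives changed the pseudocount (0.1, 0.5, 5), the minimum (none, 1, 20), the fold (1.5, 3) and the scaling. Motifs were searched on both strands in RefSeq windows of GRCr8.

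The 5 genes, and the wider lists of pathway genes and cell type markers, were chosen with earlier results of these data known. Those lists needed gene symbols and were not run. The rule for named genes was the 5 genes and the gene model nearest to Cd74. Python 3.11.15, pandas 2.3.3, NumPy 2.4.6, SciPy 1.17.1 and matplotlib 3.10.9 were used.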

Additional observations from a re-analysis of the deposited data

How the results depend on the processing

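The counts of the 5 genes at least 2-fold higher (5 in NIK versus β-Gal, 0 in NIK(KA) versus β-Gal, 5 in NIK versus NIK(KA)) were the same under all 12 alternatives, which included thresholds of 1.5-fold and 3-fold. The settings of the minimum FPKM could not change these counts, because all 5 genes passed each minimum through NIK (57.1 FPKM or more). The 1.5-fold threshold could not lower the counts of 5, and the 3-fold threshold could not raise the count of 0. The ratios of NIK were also known when the genes were picked, so nothing is read from the unchanged counts under these thresholds. Of 105 alternative log2 ratios of these genes, 99 moved from the reported log2(FPKM + 1) ratio by no more than the distance from the FPKM ratio to its counting bound, 6 moved further and 0 of the called ones turned sign. The 6 were Cd74 and Psmb8 with a pseudocount of 5 in both NIK ratios (4.98 and 1.66 against β-Gal, 4.96 and 1.68 against NIK(KA)), and B2m with medians set to 0 (-0.15 for NIK(KA) against β-Gal, 2.17 for NIK against NIK(KA)). With a pseudocount of 5, Tap1 and Psmb9 against β-Gal (1.80 and 2.10) also came below the printed intervals of their FPKM ratios. Uncalled ratios of NIK(KA) to β-Gal turned sign for Cd74 with medians set to 0 (-0.03), and for Tap1 and Psmb8 with an equal upper quartile (0.01 and 0.01).

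Counts of all gene models moved more. Giving for each comparison the higher count first (NIK versus β-Gal, NIK(KA) versus β-Gal, then NIK versus NIK(KA)), a pseudocount of 5 gave 465, 215, 129, 93, 516 and 57. A minimum FPKM of 20 gave 359, 216, 137, 119, 402 and 78, a 1.5-fold threshold 1599, 1282, 1288, 885, 1345 and 989, and a 3-fold threshold 370, 129, 90, 71, 411 and 55. A minimum of 1, or none, gave 1192, 705, 800, 372 and, for lower in NIK versus NIK(KA), 556. TPM gave 546 for higher in NIK(KA) versus β-Gal and 400 lower in NIK than in NIK(KA). The other 36 of 72 alternative counts stayed within 1.5 times. Equal sums at the mean FPKM sum were added after the data were seen. No library could be left out, and no paired analysis was possible because every group holds 1 library. Depth limits the low Cd74 levels in NIK(KA) and β-Gal most (49 and 58 reads).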
